A study of Mus musculus with 12 samples.

Results

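The genes described here are 38 genes by which endothelial cells, the lining of blood and lymph vessels, are usually recognised, measured in mouse gonads taken at embryonic day 14.5. They were taken by name from the array's gene annotation, in a list drawn up with earlier results of these data known, and 36 of the 38 had a transcript cluster (the array's unit for a locus) of their own, among 30701 genes named in all. Egfl7 and Rasip1 were read only by clusters shared with another gene and are not reported. Of the 36, 25 are pan-endothelial genes, 5 mark arteries (Dll4, Notch4, Sox17, Gja4 and Gja5), 3 mark lymphatic vessels (Flt4, Lyve1 and Prox1) and 3 belong to sprouting tips and the apelin system (Apln, Aplnr and Esm1).

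The 3 groups, with 4 arrays each, were XY FOXL2+ gonads, with the allele Rosa26-CAG-LSL-Foxl2+/f beside Sf1-cre+/Tg, and XX control and XY control gonads, both Rosa26+/+ with Sf1-Cre+/Tg. All embryos thus carried Sf1-Cre, on a mixed 129Sv and C57Bl/6J background, and every array held the RNA of a single embryo's gonads, cut free of the mesonephros. FOXL2, the transcription factor of ovarian granulosa cells, is made from the Rosa26 allele only where Cre has removed a stop cassette. Sf1-cre is directed at the somatic cells of the gonad and not at endothelium, and whether any endothelial cell carried the recombined allele was not measured here. The comparisons ask how vascular genes differ when FOXL2 is switched on in an XY gonad, and how they differ between fetal ovary and testis.

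Endothelial cells answer to VEGF ligands through the receptors KDR, FLT1 and FLT4 and to angiopoietins through TEK. Notch signalling and SOX factors direct them to an arterial fate, PROX1 to a lymphatic one. In the fetal mouse testis, endothelial cells move in from the neighbouring mesonephros and build a large artery under the surface of the gonad, which the fetal ovary does not form.

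Foxl2 read 7.67, 8.62, 7.18 and 6.72 in the XY FOXL2+ arrays, 8.08, 7.30, 7.14 and 7.39 in XX controls, and 5.07, 5.55, 5.44 and 5.33 in XY controls (deposited values, taken as log2 signal). The XY FOXL2+ arrays were all above the XY controls and overlapped the XX controls. Within a group, arrays correlated with each other across all clusters with Spearman's rho of 0.9806 to 0.9911 in XY FOXL2+, 0.9915 to 0.9925 in XX controls and 0.9858 to 0.9919 in XY controls. XY FOXL2+ replicates 1 and 2 had the lowest array weights in limma, 0.296 and 0.506. Xist in XY controls and 4 Y-linked genes in XX controls, which should be silent there, had group means of 5.99 to 7.07. A signal in or under this range is thus not shown to be above background, and a fold that rests on it is a lower bound. All group means of 10 of the 36 genes (Sox7, Sox18, Icam2, Nos3, Sox17, Gja4, Lyve1, Prox1, Apln and Esm1) were under 7.07.

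In XY FOXL2+ gonads, 5 of the 36 endothelial genes were higher than in XY controls, namely the pan-endothelial Clec14a, Cldn5, Emcn and Ramp2 and the lymphatic factor Prox1. The arterial connexin gene Gja5 and Vwf were lower, and 29 did not pass the test. Differences were called by limma at an adjusted p under 0.05 (Benjamini-Hochberg, over 65956 clusters). By this rule 2.46% of all clusters rose and 4.67% fell (3.37% and 4.72% among clusters that stand for a named gene). The endothelial genes as a whole did not lean to either side: 18 differences were above 0 and 18 below, with a median of 0.01 on the log2 scale, against 0.003 over all clusters. In 8 genes every XY FOXL2+ array was above every XY control, as in 5.23% of all clusters, and in 5 below, as in 6.97%. In these whole gonads, fewer cells of a type and less RNA per cell cannot be told apart.

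**Figure D1:**
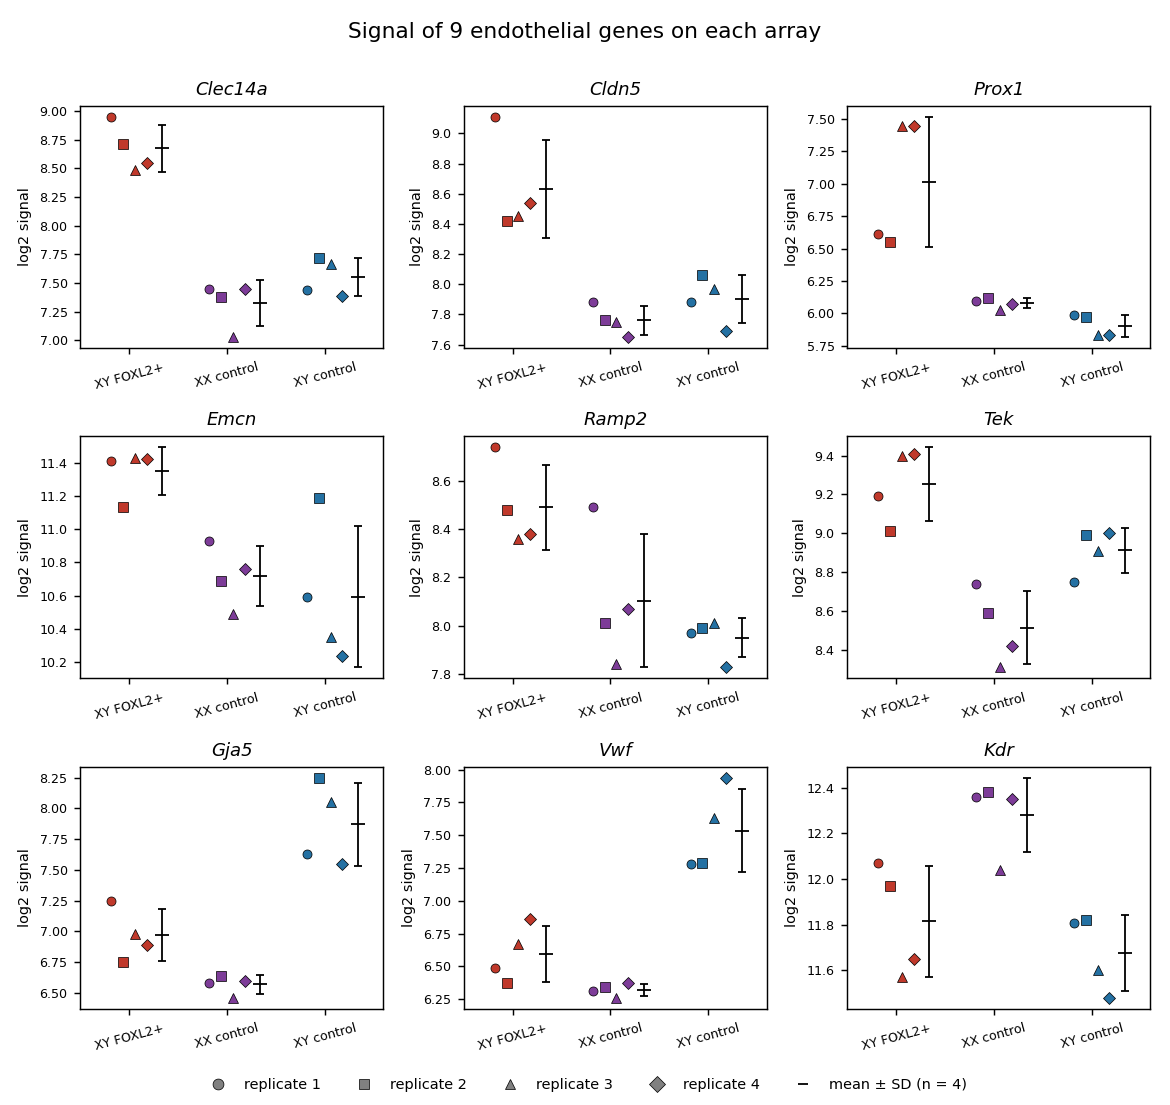
Log2 signal (vertical axis, a scale of its own in each panel) of 9 endothelial genes on each of the 12 arrays, with XY FOXL2+ in red, XX control in purple and XY control in blue. Marker shape gives the replicate number and the bar beside each group the mean and SD (n = 4); Clec14a, Cldn5 and Prox1 were above all 8 control arrays on every XY FOXL2+ array, and Gja5 and Vwf were highest in XY controls.

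Clec14a encodes a C-type lectin of the endothelial surface that takes part in sprouting. It read 8.95, 8.71, 8.49 and 8.55 in XY FOXL2+ gonads, 7.45, 7.38, 7.03 and 7.45 in XX controls, and 7.44, 7.72, 7.67 and 7.39 in XY controls. Every XY FOXL2+ array was above all 8 control arrays, while the controls of both sexes overlapped. The difference was 1.12 from XY controls (SE 0.13, 2.18-fold, adjusted p = 0.000155) and 1.35 from XX controls (SE 0.13, 2.55-fold, adjusted p = 0.000132).

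Cldn5 encodes claudin-5, the tight junction protein of endothelium. Its signal was 9.11, 8.42, 8.45 and 8.54 in XY FOXL2+ gonads, 7.88, 7.76, 7.75 and 7.65 in XX controls, and 7.88, 8.06, 7.97 and 7.69 in XY controls. Again the XY FOXL2+ arrays did not overlap either control, and replicate 1 was the highest of them. Cldn5 was higher by 0.73 than in XY controls (SE 0.14, 1.66-fold, adjusted p = 0.00739) and by 0.87 than in XX controls (SE 0.14, 1.83-fold, adjusted p = 0.00362).

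Emcn encodes endomucin, a sialomucin of venous and capillary endothelium. XY FOXL2+ arrays read 11.41, 11.13, 11.43 and 11.42, XX controls 10.93, 10.69, 10.49 and 10.76, and XY controls 10.59, 11.19, 10.35 and 10.24. All XY FOXL2+ arrays were above the XX controls, but XY control replicate 2 lay within the XY FOXL2+ range. The difference from XY controls was 0.76 (SE 0.18, 1.69-fold, adjusted p = 0.022), while XX controls differed by 0.63 (adjusted p = 0.0625). The rise over XY controls was no longer called without XY control replicate 1 (0.0543), replicate 3 (0.0762) or replicate 4 (0.0679), with only the XY groups in the fit (0.0699), or by exact permutation (p = 0.0571).

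Ramp2, which makes the calcitonin receptor-like receptor respond to adrenomedullin, read 8.74, 8.48, 8.36 and 8.38 in XY FOXL2+ gonads, 8.49, 8.01, 7.84 and 8.07 in XX controls, and 7.97, 7.99, 8.01 and 7.83 in XY controls. The XY groups did not overlap, and XX control replicate 1 alone reached the XY FOXL2+ range. Ramp2 was higher by 0.54 than in XY controls (SE 0.13, 1.45-fold, adjusted p = 0.0253) and differed by 0.39 from XX controls (adjusted p = 0.121). The call against XY controls was lost when any XY control array was left out (adjusted p = 0.0512 to 0.074), and without XY FOXL2+ replicate 1 (0.053) or replicate 2 (0.0519). Without XX control replicate 1, the difference from XX controls was called (0.52, adjusted p = 0.0242).

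The promoter windows of 3 genes that were higher and of Gja5, which was lower, are shown because these genes moved on the same arrays in opposite directions. Each runs 5′ to 3′ on the gene's strand over 250 bases before to 50 after the gene's start, from RefSeq on GRCm38.p6, where 21 of the 38 genes had a window. The windows are Clec14a at chr12:58269209-58269508 on the minus strand, Cldn5 at chr16:18776597-18776896, Emcn at chr3:137340828-137341127 and Gja5 at chr3:97032152-97032451, the last 3 on the plus strand. Capitals mark CAGGAA, or TTCCTG on the other strand, a core sequence bound by ETS factors such as ERG.
Clec14a: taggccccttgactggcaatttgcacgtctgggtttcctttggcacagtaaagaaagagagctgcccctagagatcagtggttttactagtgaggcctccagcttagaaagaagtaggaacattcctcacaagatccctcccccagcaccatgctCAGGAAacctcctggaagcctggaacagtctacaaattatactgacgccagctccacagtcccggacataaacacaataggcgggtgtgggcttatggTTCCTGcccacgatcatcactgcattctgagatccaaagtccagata
Cldn5: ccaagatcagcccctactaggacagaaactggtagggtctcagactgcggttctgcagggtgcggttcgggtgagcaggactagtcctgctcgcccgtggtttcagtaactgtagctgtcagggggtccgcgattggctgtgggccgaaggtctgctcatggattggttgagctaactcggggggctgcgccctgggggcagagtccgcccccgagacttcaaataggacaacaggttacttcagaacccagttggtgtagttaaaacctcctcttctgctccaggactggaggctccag
Emcn: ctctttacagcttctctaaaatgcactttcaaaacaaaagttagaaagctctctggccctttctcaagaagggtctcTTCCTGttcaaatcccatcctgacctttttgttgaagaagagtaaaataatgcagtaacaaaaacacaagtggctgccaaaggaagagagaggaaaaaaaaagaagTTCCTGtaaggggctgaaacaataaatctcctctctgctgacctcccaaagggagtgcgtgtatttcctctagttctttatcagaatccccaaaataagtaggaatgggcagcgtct
Gja5: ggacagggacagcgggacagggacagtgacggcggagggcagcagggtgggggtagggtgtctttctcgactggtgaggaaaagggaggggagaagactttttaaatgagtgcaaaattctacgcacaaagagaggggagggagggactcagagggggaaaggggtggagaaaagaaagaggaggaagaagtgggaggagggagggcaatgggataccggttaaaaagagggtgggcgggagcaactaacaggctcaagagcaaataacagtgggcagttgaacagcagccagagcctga
Clec14a and Emcn held 2 matches each, Cldn5 and Gja5 0 in this window. Prox1, also called higher, had windows that are not shown and held 0 matches of this motif. Over the 21 genes, 14 of 27 windows (51.9%) held the motif, against 30.6% of all 32851 windows of the table. The 27 include windows of Egfl7 and Rasip1, and some genes, such as Egfl7, Erg and Prox1, have several windows. The forkhead core TGTTTAC, or on the other strand GTAAACA, was in 0 of 27 windows and 3.65% of all, and the SOX core ACAATGG, or on the other strand CCATTGT, in 0 of 27 and 3.66% of all. None of the 3 motifs contains another. A match of letters is a description and not a site of binding.

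Prox1 is the transcription factor that sets lymphatic identity, and it is also active in other tissues such as liver and lens. It read 6.61, 6.55, 7.45 and 7.45 in XY FOXL2+ gonads, 6.10, 6.12, 6.03 and 6.07 in XX controls, and 5.99, 5.97, 5.83 and 5.83 in XY controls. The XY FOXL2+ arrays did not overlap the controls, and replicates 3 and 4 stood above replicates 1 and 2. The changes were 1.11 from XY controls (SE 0.18, adjusted p = 0.00262) and 0.93 from XX controls (SE 0.18, adjusted p = 0.0105). The means of 7.01 in XY FOXL2+, 6.08 in XX controls and 5.90 in XY controls all lie in or under the range of silent genes, so no fold is read from them. Xist, which should be silent in XY FOXL2+ gonads too, read 6.36, 6.35, 6.80 and 7.87 there.

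The other lymphatic members did not pass any comparison. Flt4, the receptor of VEGF-C and VEGF-D, read 7.50, 7.35, 7.31 and 7.33 in XY FOXL2+ gonads, 7.29, 7.28, 7.20 and 7.21 in XX controls, and 7.19, 7.30, 7.25 and 7.30 in XY controls. XY FOXL2+ arrays were above all controls by a narrow margin, with differences of 0.13 from XX controls (adjusted p = 0.362) and 0.11 from XY controls (0.423). Lyve1, a hyaluronan receptor of lymphatic vessels that macrophages also make, read 5.81, 5.58, 5.96 and 5.92 in XY FOXL2+ gonads, 5.52, 5.61, 5.49 and 5.57 in XX controls, and 5.64, 5.76, 5.52 and 5.68 in XY controls. Its groups overlapped, under the range of silent genes, and the differences were 0.27 from XX controls (adjusted p = 0.102) and 0.17 from XY controls (0.323). Among 8 other venous and lymphatic genes, Nrp2, the co-receptor of VEGF-C, was higher in XY FOXL2+ gonads, at 10.63, 10.25, 10.54 and 10.52, against 8.81, 8.63, 8.34 and 8.56 in XX controls and 8.73, 9.06, 8.30 and 8.33 in XY controls (1.88 from XY controls, adjusted p = 1.61e-05). Itga9 (-0.97, 0.0252) and the venous factor Nr2f2 (-0.61, 0.0484) were lower than in XY controls, and the list's median difference from XY controls was -0.17. Both Itga9 (1.67, adjusted p = 0.00158) and Nr2f2 (1.07, 0.00302) were higher than in XX controls. Their signal from vessels was not told apart from that of other cells.

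Gja5 encodes connexin 40, a gap junction protein of arterial endothelium. It read 7.25, 6.75, 6.98 and 6.89 in XY FOXL2+ gonads, 6.58, 6.64, 6.46 and 6.60 in XX controls, and 7.63, 8.25, 8.05 and 7.55 in XY controls. The 3 groups did not overlap, with XX controls lowest and XY controls highest. Gja5 fell by 0.90 in XY FOXL2+ gonads relative to XY controls (SE 0.15, adjusted p = 0.00272), and XX controls differed from XY controls by -1.30 (SE 0.15, adjusted p = 6.23e-05). These are at least 1.87-fold and at least 2.46-fold, since the means of 6.97 and 6.57 are among the levels of silent genes. The 0.40 between XY FOXL2+ and XX controls did not pass (adjusted p = 0.163).

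Vwf encodes von Willebrand factor, the clotting protein stored in endothelium and platelets. It read 6.49, 6.37, 6.67 and 6.86 in XY FOXL2+ gonads, 6.31, 6.34, 6.26 and 6.37 in XX controls, and 7.28, 7.29, 7.63 and 7.94 in XY controls. All XY controls were above all other arrays, whose ranges met at 6.37. The difference was -0.94 for XY FOXL2+ against XY controls (SE 0.14, at least 1.92-fold lower, adjusted p = 0.00153) and -1.21 for XX against XY controls (SE 0.14, at least 2.32-fold lower, adjusted p = 7.56e-05). Vwf and Gja5 were the only genes of the 36 called lower than XY controls in both XY FOXL2+ and XX gonads, comparisons that share the XY control arrays. None of 4 megakaryocyte and platelet markers was called in limma, nor at an unadjusted p under 0.05 (0 of 4), in any comparison. Their mean level was 6.29 to 6.50 in XY FOXL2+, 6.30 to 6.49 in XX controls and 6.24 to 7.19 in XY controls. All group means of the 4 markers were under 7.07, the upper end of the silent range, and their part in the Vwf difference was not tested.

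The other arterial members had no call in XY FOXL2+ gonads. Dll4, the Notch ligand of arterial and tip cells, read 8.07, 7.90, 7.71 and 7.81 in XY FOXL2+ gonads, 8.11, 7.83, 7.81 and 7.89 in XX controls, and 8.06, 7.99, 8.16 and 8.11 in XY controls. All groups overlapped, and the difference from XY controls was -0.21 for XY FOXL2+ (adjusted p = 0.255) and -0.17 for XX controls (0.3). Notch4, a Notch receptor largely confined to endothelium, read 7.10 to 7.25 in XY FOXL2+, 7.10 to 7.19 in XX controls and 7.20 to 7.31 in XY controls, with differences from XY controls of -0.07 and -0.11 that did not pass (0.603 and 0.308). Gja4, which encodes the arterial connexin 37, read 6.40 to 6.66, 6.40 to 6.64 and 6.57 to 6.77 in the same group order, and neither difference from XY controls passed (-0.17, adjusted p = 0.288, and -0.18, adjusted p = 0.197). Sox17, an arterial transcription factor, read 6.05, 6.06, 5.93 and 6.11 in XY FOXL2+ gonads, 5.95, 6.07, 5.92 and 5.94 in XX controls, and 6.19, 6.39, 6.24 and 6.09 in XY controls. XX controls were below every XY control, with a difference of -0.26 (SE 0.08, adjusted p = 0.0349) in or under the range of silent genes. The call was lost without XX control replicates 1, 3 or 4 or XY control replicates 1, 2 or 3 (adjusted p = 0.0571 to 0.097). Quantile normalization (0.0892) and a common array median (0.102) lost the call of Sox17 too.

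**Figure D2:**
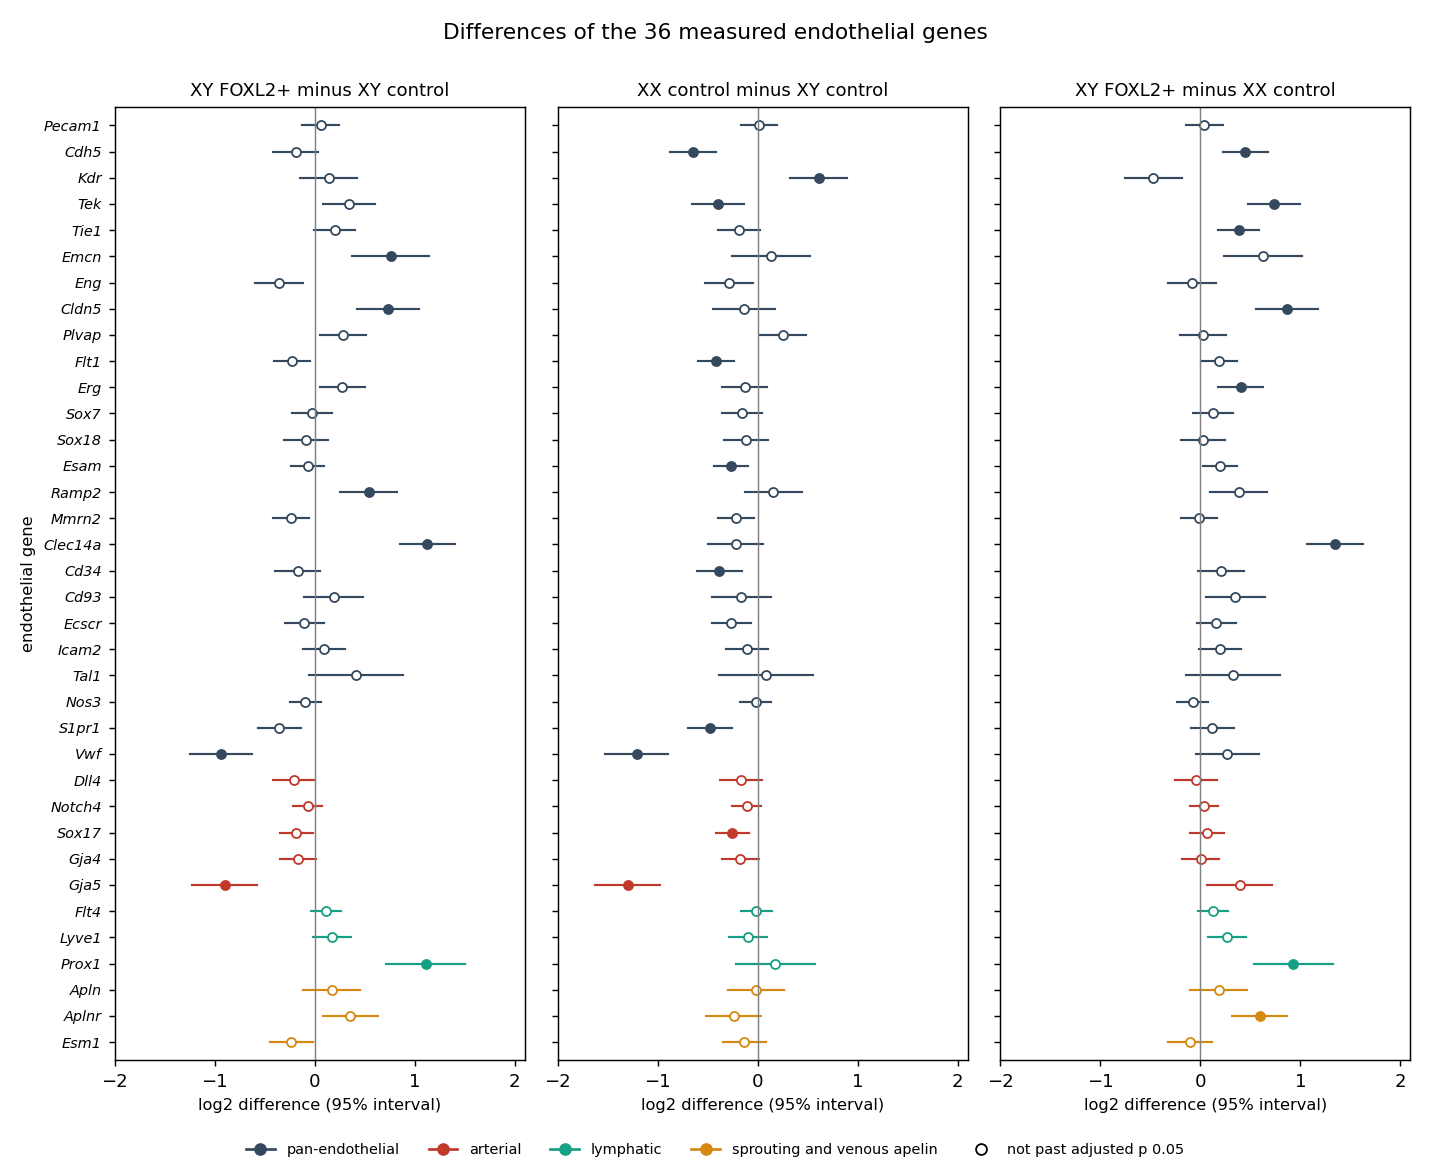
Log2 difference with its 95% interval (horizontal axis) of each of the 36 measured endothelial genes (vertical axis) in the 3 comparisons, filled where the adjusted p was under 0.05 and coloured by gene group. Clec14a, Cldn5 and Prox1 lie to the right in both comparisons of XY FOXL2+, and Gja5 and Vwf to the left in both comparisons with XY controls.

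All 5 arterial differences were below 0 against XY controls, in XY FOXL2+ gonads (median -0.19) and in XX controls (median -0.18), and so they were with quantile normalization and with a common array median. Of the 25 pan-endothelial differences from XY controls, 12 were below 0 in XY FOXL2+ gonads (median 0.06) and 19 in XX controls (median -0.17), so the XX medians of both lists were close. Gja5 had the one large arterial difference, and Sox17 and Gja4 read in or under the range of silent genes. The mean level of the 5 was 7.03, 6.86, 6.84 and 6.93 in XY FOXL2+ arrays, 6.86, 6.84, 6.74 and 6.84 in XX controls, and 7.15, 7.32, 7.27 and 7.15 in XY controls. The XY controls lay above all other arrays, and the others overlapped. The arterial mean minus the mean of the 25 pan-endothelial genes on the same array was -1.73, -1.71, -1.75 and -1.72 in XY FOXL2+, -1.62, -1.54, -1.51 and -1.52 in XX controls, and -1.34, -1.29, -1.32 and -1.36 in XY controls. The size of this gap depends on probe brightness, so only its change between arrays can be read. The 3 groups did not overlap, but the controls did without Gja5: the mean of the other 4 arterial genes minus the pan-endothelial mean was -1.78, -1.68, -1.79 and -1.71 in XY FOXL2+, -1.55, -1.49, -1.44 and -1.46 in XX controls, and -1.46, -1.53, -1.52 and -1.46 in XY controls. With these 4 genes the gap still put the XY FOXL2+ arrays below all controls. Against XX controls, however, the 4 genes themselves hardly differed: Dll4 by -0.04, Notch4 by 0.04, Sox17 by 0.07 and Gja4 by 0.01. The subtracted pan-endothelial mean averaged 8.64 in XY FOXL2+ gonads and 8.37 in XX controls. The wider gap relative to XX controls thus lay in the subtracted mean and is not a lower arterial signal. The pan-endothelial mean itself, to which the gap is set, was 8.76, 8.57, 8.59 and 8.64 in XY FOXL2+, against 8.49, 8.38, 8.25 and 8.35 in XX controls and 8.49, 8.61, 8.59 and 8.51 in XY controls. These are descriptions of lists chosen with earlier results known and carry no test.

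**Figure D3:**
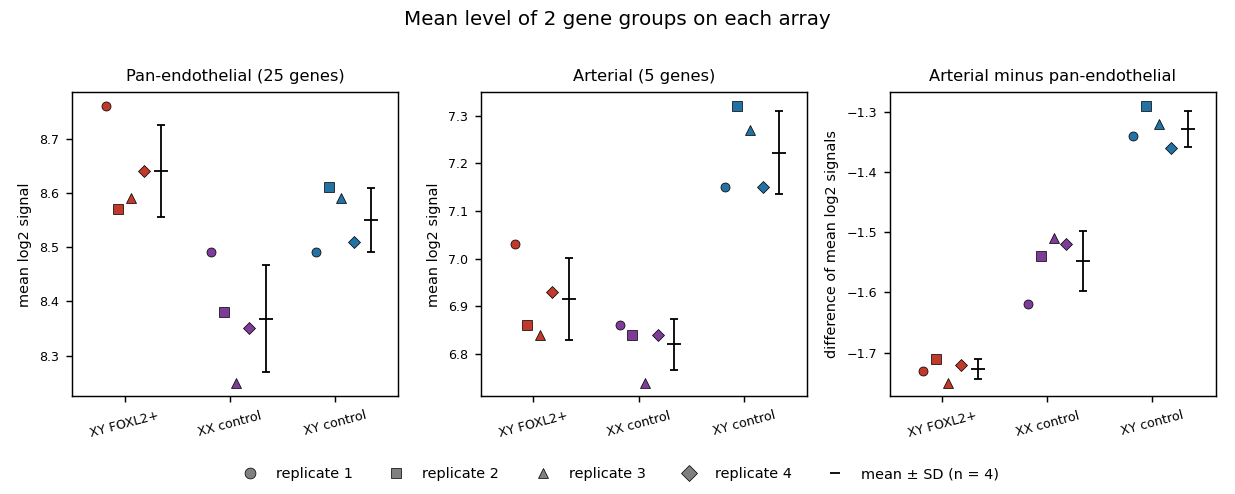
Mean log2 signal on each array (vertical axes) of the 25 pan-endothelial genes, of the 5 arterial genes, and the second minus the first, in the 3 groups, with the mean and SD of each group (n = 4). In the difference, the 4 XY FOXL2+ arrays lie at -1.75 to -1.71, XX controls at -1.62 to -1.51 and XY controls at -1.36 to -1.29; without Gja5 the controls of both sexes overlap, at -1.55 to -1.44 in XX and -1.53 to -1.46 in XY.

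Of 13 other arterial genes, 7 were lower in XY FOXL2+ gonads than in XY controls and 0 higher (0 also at an unadjusted p under 0.05), with a list median of -0.36. The Notch ligand gene Jag1 changed by -2.84 (adjusted p = 2.03e-06), the chemokine receptor gene Cxcr4 by -1.65 (0.00324), the Notch targets Heyl by -1.35 (0.000105) and Hey2 by -0.67 (0.00473), the BMP receptor gene Acvrl1 by -1.0 (3.28e-05) and Fbln5, an elastic fibre protein, by -0.68 (0.00976). XX controls were lower than XY controls in 9 of the 13, Jag1 by a log2 difference of -3.52 (2.66e-07), and higher in Jag2 (0.79, adjusted p = 0.00107). Several of these genes are also made outside vessels in the testis, so the list does not read arteries alone. Pericyte and mural cell markers moved with them: 9 of 12 were lower and 1 (Abcc9, 0.82) higher in XY FOXL2+ gonads, among them Acta2 (-1.59), Tagln (-1.55), Rgs5 (-1.44) and Pdgfrb (-1.44). Their mean level was 9.10 to 9.30 in XY FOXL2+, 8.82 to 9.21 in XX controls and 9.74 to 10.05 in XY controls, and their part in the arterial differences was not tested. These markers too were read in whole gonads, and the share of their signal from vessels was not measured.

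**Figure D4:**
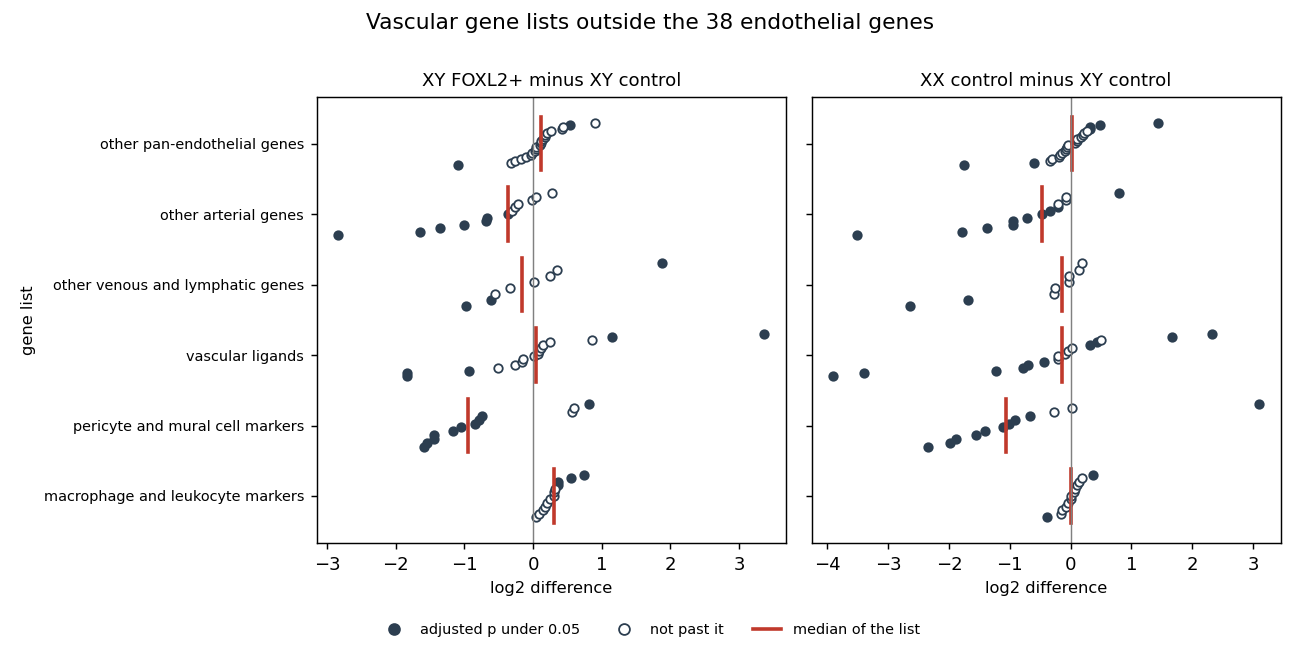
Log2 differences (horizontal axes) of vascular gene lists outside the 38 genes (rows), each point a gene, filled where the adjusted p was under 0.05, with a red bar at the list median. The other arterial genes have medians of -0.36 and -0.47 in the left and right panels, and the mural cell markers -0.94 and -1.07.

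Between the control sexes, XX gonads had lower signal than XY gonads for 9 of the 36 genes and higher signal for 1, and 26 did not pass. Over all clusters, 10.2% were lower and 7.17% higher in XX controls (11% and 10.2% among named genes). Of the 36 differences, 29 were below 0 and 7 above, where 41.9% of all clusters were above 0. Their median was -0.16, against -0.033 over all clusters. The 9 were Cdh5, Tek, Flt1, Esam, Cd34, S1pr1 and Vwf among the pan-endothelial genes and the arterial Sox17 and Gja5, and the gene that was higher was Kdr. In 11 of the 36 genes every XX array was below every XY array, against 14.8% of all clusters, and in 2 (Kdr and Prox1) above, against 10.5%. With arrays set to a common median or quantile normalized, 5 endothelial genes were called lower and 1 higher in each case, and 26 of the 36 differences were below 0. The calls over all clusters were then 5782 higher and 5575 lower with the common median and 6116 higher and 5385 lower with quantile normalization. Without such rescaling, 22 other pan-endothelial genes did not lean to either side, with 11 differences above 0, 11 below and a median of 0.02. Of these 22, 4 were called higher in XX than in XY controls and 2 lower.

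Cdh5 encodes VE-cadherin, the adhesion molecule of endothelial junctions. It read 13.58, 13.28, 13.57 and 13.78 in XY FOXL2+ gonads, 13.15, 13.15, 12.92 and 13.17 in XX controls, and 13.68, 13.75, 13.85 and 13.72 in XY controls. XX arrays were below all other arrays, and XY FOXL2+ arrays overlapped the XY controls. The sex difference was -0.65 (SE 0.10, 1.57-fold lower in XX, adjusted p = 0.000757). XY FOXL2+ gonads were higher than XX controls by 0.45 (SE 0.10, adjusted p = 0.0243), a call lost without XY FOXL2+ replicates 3 or 4 or XX control replicates 2, 3 or 4 (adjusted p = 0.0508 to 0.082). Quantile normalization (0.0533) and a fit of only these groups (0.0845) lost this call too. The difference between XY FOXL2+ and XY controls was -0.19 (95% interval -0.42 to 0.03, adjusted p = 0.338).

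Kdr encodes the main signalling receptor of VEGF and went the other way. It read 12.07, 11.97, 11.57 and 11.65 in XY FOXL2+ gonads, 12.36, 12.38, 12.04 and 12.35 in XX controls, and 11.81, 11.82, 11.60 and 11.48 in XY controls. XX arrays were all above the XY controls, and XY FOXL2+ replicates 1 and 2 lay above replicates 3 and 4. The sex difference was 0.61 (SE 0.13, 1.52-fold, adjusted p = 0.00604). XY FOXL2+ gonads differed from XX controls by -0.47, which did not pass (adjusted p = 0.0609) but did without XY FOXL2+ replicate 1 (0.0238) or replicate 2 (0.0401).

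Flt1, a VEGF receptor that holds ligand back from KDR, read 8.37, 8.22, 8.40 and 8.53 in XY FOXL2+ gonads, 8.24, 8.23, 8.10 and 8.21 in XX controls, and 8.57, 8.68, 8.62 and 8.59 in XY controls. All XY controls were above all other arrays. The sex difference was -0.42 (SE 0.08, 1.34-fold lower in XX, adjusted p = 0.00295), and XY FOXL2+ differed from XY controls by -0.23 (adjusted p = 0.123). S1pr1, the receptor by which sphingosine-1-phosphate steadies new vessels, read 7.0, 7.03, 7.20 and 7.17 in XY FOXL2+ gonads, 7.13, 7.0, 6.79 and 6.97 in XX controls, and 7.26, 7.58, 7.38 and 7.60 in XY controls. Here too the XY controls stood above the rest, with differences of -0.48 for XX (SE 0.10, at least 1.40-fold lower, adjusted p = 0.00448) and -0.36 for XY FOXL2+ (adjusted p = 0.0506), the second called without XY control replicate 1 (0.0328).

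Tek, Esam and Cd34 were lower in XX than in XY controls by smaller steps. Esam, a junctional adhesion molecule, read 7.61, 7.51, 7.47 and 7.47 in XY FOXL2+ gonads, 7.42, 7.24, 7.33 and 7.26 in XX controls, and 7.47, 7.65, 7.67 and 7.55 in XY controls, with a sex difference of -0.27 (SE 0.08, adjusted p = 0.0268). Cd34, a sialomucin of vascular and blood progenitor cells, read 10.50, 10.25, 10.17 and 10.14 in XY FOXL2+ gonads, 10.20, 10.09, 9.88 and 10.04 in XX controls, and 10.34, 10.43, 10.60 and 10.38 in XY controls, with a sex difference of -0.39 (SE 0.11, adjusted p = 0.023). In both, XX and XY control arrays did not overlap and the XY FOXL2+ arrays reached into the range of XY controls. The call of Esam was lost without XX control replicates 2, 3 or 4 or XY control replicates 2 or 3 (adjusted p = 0.0553 to 0.0883), and that of Cd34 without XX control replicates 3 or 4 or XY control replicate 3 (0.0585 to 0.0818). With quantile normalization the adjusted p was 0.21 for Esam, 0.0925 for Cd34 and 0.133 for Tek.

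XY FOXL2+ gonads were higher than XX controls in 8 of the 36 genes and lower in 0 (limma, with 15 higher and 1 lower at an unadjusted p under 0.05). They were Clec14a, Cldn5, Prox1, Tek, Tie1, Cdh5, Erg and Aplnr, and 28 did not pass. Over all clusters, 2.87% were higher and 2.64% lower (3.2% and 3.32% among named genes). Of the 36 differences 30 were above 0, where 58.9% of all clusters were. Their median was 0.19, against 0.032 over all clusters. With quantile normalization the calls were 5 higher and 1 lower, where the 1 was Kdr, and those over all clusters were 1757 higher and 1996 lower. The differences above 0 then numbered 28, and 25 with a common array median. In 12 of the 36 genes every XY FOXL2+ array was above every XX array, against 6.63% of all clusters, and in 0 below, against 4.82%. The 22 other pan-endothelial genes leaned less, with 14 differences above 0, 8 below and a median of 0.06. Of these 22, 3 were called higher in XY FOXL2+ gonads than in XX controls and 2 lower.

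Tek, the receptor of the angiopoietins, read 9.19, 9.01, 9.40 and 9.41 in XY FOXL2+ gonads, 8.74, 8.59, 8.31 and 8.42 in XX controls, and 8.75, 8.99, 8.91 and 9.0 in XY controls. XY FOXL2+ arrays were above all controls, if only by 0.01 over the nearest XY control, and XX arrays were below all XY controls. The difference from XX controls was 0.74 (SE 0.12, 1.67-fold, adjusted p = 0.00332), and that from XY controls was 0.34 (adjusted p = 0.117). XX controls differed from XY controls by -0.40 (SE 0.12, adjusted p = 0.0349), a call lost without XX control replicates 2, 3 or 4 or XY control replicates 2, 3 or 4 (0.0566 to 0.11). Tie1, the orphan partner of TEK, read 8.39, 8.20, 8.48 and 8.46 in XY FOXL2+ gonads, 8.21, 8.0, 7.83 and 7.93 in XX controls, and 8.16, 8.22, 8.20 and 8.15 in XY controls. XY FOXL2+ and XX arrays overlapped only through XX control replicate 1, and the difference of 0.39 (SE 0.10, adjusted p = 0.0337) was lost when any of 7 arrays was left out (XY FOXL2+ replicates 3 and 4, XX control replicates 2 to 4, XY control replicates 1 and 3), with adjusted p of 0.0505 to 0.108. The call of Tie1 was lost as well with quantile normalization (0.05), a common array median (0.0694), only these groups in the fit (0.106), the replicate number as a block (0.0673) or exact permutation (p = 0.0571).

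Erg, the ETS factor that maintains endothelial identity, read 8.11, 7.72, 7.82 and 8.01 in XY FOXL2+ gonads, 7.52, 7.70, 7.47 and 7.32 in XX controls, and 7.64, 7.74, 7.57 and 7.61 in XY controls. The lowest XY FOXL2+ array was just above the highest XX array. Erg differed from XX controls by 0.41 (SE 0.10, adjusted p = 0.0399), a call lost when any of 9 arrays was left out, all except XY FOXL2+ replicate 2, XX control replicate 2 and XY control replicate 2 (0.0551 to 0.123). The call of Erg was lost as well with quantile normalization (0.0869), a common array median (0.0847), only these groups in the fit (0.11) or the replicate number as a block (0.07). Aplnr, the apelin receptor of venous and sprouting endothelium, read 10.43, 10.59, 10.74 and 10.77 in XY FOXL2+ gonads, 10.39, 10.03, 9.89 and 9.83 in XX controls, and 10.31, 10.40, 10.20 and 10.22 in XY controls. XY FOXL2+ arrays were above all controls, with XY control replicate 2 the nearest. The difference was 0.60 from XX controls (SE 0.13, 1.51-fold, adjusted p = 0.0158) and 0.35 from XY controls (adjusted p = 0.13). The call against XX controls was lost without XY FOXL2+ replicates 3 or 4 or XX control replicates 3 or 4 (0.0503 to 0.0577), and with only these groups in the fit (0.0627).

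The apelin receptor's ligand gene Apln read 7.44, 6.93, 6.68 and 6.86 in XY FOXL2+ gonads, 6.83, 6.73, 6.79 and 6.81 in XX controls, and 6.88, 6.81, 6.89 and 6.65 in XY controls, so that XY FOXL2+ replicate 1 alone stood out. Its differences did not pass (0.19 from XX controls, adjusted p = 0.5, and 0.17 from XY controls, 0.538). Esm1, a proteoglycan gene of tip cells, read 5.94, 5.79, 5.89 and 6.00 in XY FOXL2+ gonads, 6.01, 5.89, 5.98 and 6.14 in XX controls, and 6.43, 5.95, 6.09 and 6.10 in XY controls. These groups overlapped in or under the range of silent genes, and no difference passed (-0.10 from XX controls, adjusted p = 0.668, and -0.24 from XY controls, 0.2).

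Against both controls at once, 3 of the 36 genes (Clec14a, Cldn5 and Prox1) were called higher in XY FOXL2+ gonads than in each, against 0.384% of all clusters, and 0 lower, against 0.338%. In 6 genes (Tek, Cldn5, Clec14a, Flt4, Prox1 and Aplnr) every XY FOXL2+ array was above all 8 control arrays, against 0.876% of all clusters, and in 0 below, against 0.787%. These comparisons share the XY FOXL2+ arrays. Macrophage and leukocyte markers were also higher on these arrays: 4 of 13 were called higher than in XY controls (Csf1r, Adgre1, Mrc1 and C1qb, by 0.36 to 0.74) and 3 higher than in XX controls. Their mean level was 7.06 to 7.20 in XY FOXL2+, 6.76 to 6.95 in XX controls and 6.78 to 6.98 in XY controls, and their part in the endothelial rises was not tested. Of 22 other pan-endothelial genes, 1 was higher than in XY controls (Adgrf5, 0.54, adjusted p = 0.017) and 1 lower (Mef2c, -1.09, adjusted p = 0.00017), with a list median of 0.11.

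Pecam1, Eng and Plvap are among the 18 genes with no call in any comparison. Pecam1, an adhesion molecule of all endothelium, read 9.92, 9.81, 9.83 and 9.84 in XY FOXL2+ gonads, 9.78, 9.75, 9.89 and 9.80 in XX controls, and 9.71, 9.99, 9.76 and 9.72 in XY controls. All groups overlapped, and the difference between XY FOXL2+ and XY controls was 0.06 (95% interval -0.13 to 0.24), between XX and XY controls 0.01 (-0.17 to 0.19). How much of the Pecam1 signal of these whole gonads came from endothelium was not measured. Eng, the TGF-beta co-receptor endoglin, averaged 11.09 ± 0.18 in XY FOXL2+, 11.17 ± 0.09 in XX controls and 11.46 ± 0.17 in XY controls (SD, n = 4), and its difference of -0.36 between XY FOXL2+ and XY controls did not pass (adjusted p = 0.0704). Plvap, the protein of the diaphragms in fenestrated capillaries, averaged 7.65 ± 0.06, 7.62 ± 0.16 and 7.37 ± 0.19 in the same order, and all XY FOXL2+ arrays were above the XY controls without a call (0.28, adjusted p = 0.147). Differences between XY FOXL2+ and XY controls among the other pan-endothelial genes without a call ran from -0.24 for Mmrn2, a matrix protein that binds CLEC14A and CD93, to 0.41 for Tal1.

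Tal1, a factor of endothelial and blood cell precursors, read 7.84, 7.59, 6.87 and 6.72 in XY FOXL2+ gonads, 7.06, 6.81, 7.17 and 6.66 in XX controls, and 6.76, 6.69, 6.87 and 7.06 in XY controls. XY FOXL2+ replicates 1 and 2 were above all other arrays, and the difference from XY controls did not pass (0.41, adjusted p = 0.332). The mean of 6 erythroid markers was 10.87, 10.68, 9.11 and 8.77 in XY FOXL2+, against 9.49 to 9.99 in XX controls and 9.37 to 9.86 in XY controls, and none of the 6 was called in limma (0 of 6 at an unadjusted p under 0.05 against XY controls, and 2 of 6, both lower, against XX controls). The 6 did not move together. Klf1, an erythroid transcription factor, read 10.43, 8.01, 6.69 and 6.47 in XY FOXL2+, against 6.35 to 7.56 in XX controls and 6.40 to 6.90 in XY controls, whereas the embryonic globin gene Hbb-y read 15.78, 15.42, 14.20 and 13.95 in XY FOXL2+, against 16.11 to 16.59 in XX controls and 14.81 to 16.59 in XY controls. These markers were singled out after their values were seen. Their part in the Tal1 signal was not tested.

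Among 16 genes of vascular ligands and modulators, 2 were higher and 3 lower in XY FOXL2+ gonads than in XY controls. Thbs1, an inhibitor of vessel growth, read 13.39, 12.78, 14.20 and 13.88 in XY FOXL2+ gonads, 11.34, 10.42, 10.34 and 10.66 in XX controls, and 9.99, 10.70, 10.17 and 9.89 in XY controls (3.37 from XY controls, adjusted p = 1.74e-05). Angpt1, the activating ligand of TEK, read 8.82, 8.54, 9.48 and 9.71 in XY FOXL2+ gonads, 7.92, 7.79, 7.49 and 7.93 in XX controls, and 8.06, 8.46, 7.48 and 7.94 in XY controls (1.15 from XY controls, adjusted p = 0.0142). Both were above all controls on every XY FOXL2+ array. So was the receptor gene Tek, but its lowest XY FOXL2+ array read 9.01 against 9.0 in the highest XY control. Its limma difference of 0.34 from XY controls did not pass (adjusted p = 0.117). Vegfd, a ligand of FLT4, changed by -1.84 (adjusted p = 0.0286) and the chemokine gene Cxcl12 by -1.84 (0.0204). On XY FOXL2+ arrays Vegfd read 9.2, 8.56, 11.17 and 10.95, and Cxcl12 9.25, 8.62, 10.86 and 10.98. The lowest XY control arrays read 11.4 for Vegfd and 11.56 for Cxcl12. All XY FOXL2+ arrays were thus below the XY controls, but replicates 1 and 2 lay further below than replicates 3 and 4. Pgf, a ligand of FLT1, changed by -0.93 (adjusted p = 8.5e-05), a lower bound on its size since the XY FOXL2+ mean of 6.95 is in the silent range. Between the control sexes 4 were higher and 6 lower in XX gonads, among them Adm, the ligand of the RAMP2 receptor complex, at 2.33 or more (0.00155, with the XY control mean of 6.31 in the silent range), Vegfa at 0.31 (0.0318), Vegfd at -3.39 (0.000201) and Cxcl12 at -3.91 (4.43e-05).

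Arrays of a group differed from each other over the endothelial genes as a set. XX control replicate 3 was the lowest of its group in 27 of the 36 genes (75.0%), against 20.8% of all clusters, and XX control replicate 1 the highest in 20 (55.6%, against 19.5%). XY FOXL2+ replicate 1 was the highest of its group in 20 (55.6%, against 26.2%) and replicate 2 the lowest in 16 (44.4%, against 28.9%). Without XX control replicate 3, the count lower in XX than in XY controls was 5 and that higher in XY FOXL2+ than in XX controls was 4. The median SD of the 36 genes was 0.151 in XY FOXL2+, 0.106 in XX controls and 0.111 in XY controls, against 0.163, 0.116 and 0.131 over all clusters.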

How the data were processed

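RNA from the gonads of 12 embryos, 4 per group, was read on the Affymetrix Mouse Transcriptome 1.0 array after Picopure extraction and labelling with the WT Plus kit, per the labels' protocols. The deposited values were taken as log2 signal because they run from 2.60 to 19.49 on arrays with medians of 6.15 to 6.30; the sources used here do not name the base, background correction or normalization of the authors, and another base would rescale every difference. No detection calls were used, and the number of arrays limits the precision.

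Of 72688 entries, 6732 controls were left out and 65956 clusters were tested with no filter on signal. Gene symbols are those of the platform annotation with older ones renamed by RefSeq: 31258 clusters had 1 symbol, 1492 several (left unnamed) and 33206 none listed. Each of the 36 genes had 1 cluster of its own. Groups, taken from the sample titles, all entered 1 limma fit (version 3.58.1, R 4.3.3; lmFit, then eBayes with its trend option) of the 12 arrays, with 9 residual degrees of freedom, two-sided, with Benjamini-Hochberg adjustment over all clusters and a threshold of 0.05. Exact permutation of 4 against 4 arrays has 70 assignments and a smallest p of 0.0286. The script was tested on simulated data.

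The endothelial genes, their groups and the other lists were chosen with earlier results of these data known. All 36 genes could be named. From other lists only genes past the threshold were named, at most 6 per list and comparison. The exceptions were the erythroid Klf1 and Hbb-y, which passed in no comparison and were picked after their values were seen. Alternatives were other normalizations, array weights, fits to the groups compared, a fit with no intensity trend, a signal filter and a replicate block. Others were the lowest-mean cluster per gene, leaving out each array, and exact permutation.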

Additional observations from a re-analysis of the deposited data

Results flagged for a closer look

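In 9 of 108 sets of 4 arrays (36 genes in 3 groups), the highest or lowest array lay far from the others of its group, with a gap to its neighbour over 0.829 of the group's range. Chance gives about 1 in 20 such sets. XY FOXL2+ replicate 1 was high in Cldn5 (9.11, with the others at 8.42 to 8.54) and in Icam2, an adhesion molecule for leukocytes (7.08, with the others at 6.65 to 6.72). XY FOXL2+ replicate 2 was low in Emcn (11.13, with the others at 11.41 to 11.43). XX control replicate 3 was low in Cdh5 (12.92, with the others at 13.15 to 13.17), Kdr (12.04, with the others at 12.35 to 12.38) and Clec14a (7.03, with the others at 7.38 to 7.45). XX control replicate 1 was high in Plvap (7.86, with the others at 7.52 to 7.56). XY control replicate 2 was high in Pecam1 (9.99, with the others at 9.71 to 9.76), and XY control replicate 1 was low in Mmrn2 (7.57, with the others at 7.71 and 7.72).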

How the results depend on the processing

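Of 25 calls of single endothelial genes, 15 held in every alternative tried (20 or 21 per gene) and 10 were lost in at least 1. None (0) reversed, and 22 of 83 uncalled differences were called in at least 1. The alternatives counted include the lowest-mean cluster of each gene. With 1 cluster per gene this repeated the original fit and could not change a call. The 5 genes higher in XY FOXL2+ than in XY controls became 8 by exact permutation with no adjustment and 3 to 5 with single arrays left out, with 3 without XY control replicates 1, 3 or 4. The 2 lower became 4 among clusters above the median signal, where fewer clusters are tested, 5 by exact permutation, and 2 to 3 with single arrays left out. The 1 gene higher in XX than in XY controls became 2 by exact permutation and stayed at 1 in each fit without an array. The 9 lower became 5 under quantile normalization and 5 with a common array median, and ran from 5 to 12 over all settings other than leaving out single arrays. With single arrays left out they were 5 to 10, with 5 where XY control replicate 3, XX control replicate 3 or XX control replicate 4 was left out. The 8 higher in XY FOXL2+ than in XX controls became 5 under quantile normalization and 5 with only these groups in the fit, and ran from 5 to 12 over all settings other than leaving out single arrays. With single arrays left out they were 4 to 10, with 4 where a replicate 3 or 4 of either group was left out. The 0 lower became 1 (Kdr) under quantile normalization, with array weights, among clusters above the median signal and with the replicate block, and 0 to 1 with single arrays left out, with 1 without XY FOXL2+ replicates 1 or 2. The cause of these moves was not tested, other than as stated. Same-numbered arrays did not deviate together (12 pairs, r of -0.0906 to 0.179, 2 over 0.1), so the numbers were not taken as pairs; as a replicate block they gave 1438 higher and 2918 lower clusters in XY FOXL2+ against XY controls, with 1621 and 3077 without it. With only the XY groups in the fit these were 809 and 1891, and without XY control replicate 3 they were 998 and 2126. Against XX controls, 1891 and 1744 clusters became 3668 and 3084 with array weights, 944 and 972 with only these groups, 980 and 1032 without XY FOXL2+ replicate 4, and 2967 and 3025 without XY FOXL2+ replicate 2. Low signals limit what can be seen of the 10 genes in or under the range of silent genes, and 4 of them (Sox17, Sox18, Lyve1 and Esm1) had no value under the signal filter.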

Other observations

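Among 6 haematopoietic progenitor markers, Runx1 read 8.08, 8.61, 7.24 and 7.12 in XY FOXL2+ gonads, 9.42, 9.05, 9.24 and 9.18 in XX controls, and 6.63, 6.47, 6.49 and 6.57 in XY controls. The groups did not overlap, and Runx1, a factor of blood formation that supporting cells of the mouse fetal ovary also make, was higher by at least 1.22 in XY FOXL2+ than in XY controls (adjusted p = 0.0115), whose mean of 6.54 is in the range of silent genes, and by at least 2.68 in XX than in XY controls (adjusted p = 1.66e-05). Gata2, a factor of endothelial and blood cells, read 7.86, 8.30, 7.34 and 7.47 in XY FOXL2+ gonads, 8.57, 8.86, 8.77 and 8.82 in XX controls, and 7.33, 7.24, 7.42 and 7.25 in XY controls. It was higher in XX than in XY controls by 1.44 (adjusted p = 7.18e-05), and lower in XY FOXL2+ than in XX controls, with a difference of -1.01 (adjusted p = 0.00419). Among 5 markers of the mesonephros, which was dissected away, Calb1 was higher than in XY controls, whose mean was 5.98, by at least 2.77 in XY FOXL2+ (adjusted p = 0.00836) and by at least 3.83 in XX controls (adjusted p = 0.000338). Pax8 was higher in XX than in XY controls, whose mean was 6.77, by at least 1.38 (adjusted p = 0.000184). The group means of Lhx1 were all below 7.07, so its differences are not read.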
